A study of Mus musculus with 18 samples.

Results

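The genes described here encode the TFEB family of transcription factors and the lysosomal machinery through which mTORC1 senses amino acids. They are the 10 rows of the deposited gene table named *Tfeb*, *Tfe3*, *Mitf*, *Rragc*, *Rragd*, *Flcn*, *Fnip1*, *Mtor*, *Rptor* and *Slc38a9*, chosen by name. The table lists 31053 genes. All 10 genes were among the 12290 that passed the filter on low counts and were tested.

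RNA-Seq had been performed on BM-derived macrophages from 3 *Slc7a7*-/- (knockout) mice and 3 *Slc7a7*+/+ (wild type) mice, which gave 18 libraries in 6 groups of 3. *Slc7a7* encodes the light chain of a plasma membrane exchanger of cationic and neutral amino acids. The knockout was myeloid-specific and driven by LysM-Cre, a recombinase under the lysozyme M promoter, on a C57Bl/6J background, and whether the wild type mice carried the Cre or a floxed allele is not given in the sources used here. All mice were 12 weeks old. For RNA-Seq 100000 cells were seeded. The cells of each mouse were kept for 24 h with Ac-LDL (acetylated LDL, 50 µg/mL), with Ox-LDL (oxidized LDL, 100 µg/mL) or with vehicle only (control). Each mouse contributed a library in every medium. The doses of both LDL forms differed, and they were not compared with each other. Both share the same control libraries.

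On the lysosomal surface, the Rag GTPases (a RagA or RagB paired with a RagC or RagD) hold mTORC1 in place when amino acids are plentiful. SLC38A9 reports lysosomal arginine to them, and folliculin with its FNIP partner acts on RagC and RagD. Active mTORC1 phosphorylates TFEB and TFE3 and keeps them in the cytoplasm, and when its activity falls they enter the nucleus and raise genes of lysosomes and autophagy. Macrophages that take up modified LDL degrade it in lysosomes, and MITF, another factor of the family, also takes part in the formation of osteoclasts. These steps are set by phosphorylation and localization of proteins, which RNA levels do not measure.

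The upstream sequences of 3 of the genes are shown because *Rragd* had the largest log2 fold change with Ox-LDL among the 10 genes, and because *Rragc* and *Fnip1* are the only ones of the 10 whose promoter windows hold the core of the sequence that TFEB-family factors bind. They are the 250 bases before the annotated start on the plus strand, from RefSeq on GRCm38.p6. *Rragd* lies at chr4:32982748-32982997, *Rragc* at chr4:123917183-123917432 and *Fnip1* at chr11:54437929-54438178, and capitals mark matches to CACGTGA.
Rragd: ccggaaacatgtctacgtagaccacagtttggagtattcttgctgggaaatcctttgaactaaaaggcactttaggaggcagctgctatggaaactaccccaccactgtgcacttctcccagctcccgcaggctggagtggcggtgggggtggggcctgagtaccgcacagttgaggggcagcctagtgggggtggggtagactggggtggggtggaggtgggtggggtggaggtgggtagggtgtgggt
Rragc: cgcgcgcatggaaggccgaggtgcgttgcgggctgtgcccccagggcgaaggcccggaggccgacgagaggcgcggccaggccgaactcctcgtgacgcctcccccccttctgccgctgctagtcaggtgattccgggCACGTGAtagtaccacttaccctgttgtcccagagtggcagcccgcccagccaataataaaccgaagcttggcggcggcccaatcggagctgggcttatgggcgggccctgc
Fnip1: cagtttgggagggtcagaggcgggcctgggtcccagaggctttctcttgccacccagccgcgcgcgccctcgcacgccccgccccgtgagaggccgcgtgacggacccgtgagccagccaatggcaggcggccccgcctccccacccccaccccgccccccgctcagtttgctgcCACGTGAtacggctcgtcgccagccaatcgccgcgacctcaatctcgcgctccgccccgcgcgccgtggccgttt
All 10 genes matched an entry, with 15 windows between them that run from 250 bases before to 50 bases after a start. The core CACGTG was found in 7.15% of all 32851 RefSeq windows of this length, and the longer TCACGTG, which contains it, in 3.77% (both strands searched). In *Rragc* the match began 112 bases before the start and in *Fnip1* 75 bases before it. The 10-base CLEAR consensus, a palindrome that contains both, was in 0.326% of all windows, and TCATGTG, a sequence bound by MITF, in 3.77%, and neither was in a window of the 10 genes. These matches are descriptions of letters and no measure of binding.

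The libraries held 1043492 to 1768816 estimated counts each, so that 3 counts correspond to 1.67 to 2.85 CPM (the count relative to the library total after TMM scaling), a floor that covers counting error only. *Slc7a7* was measured first, as a check of the genotype. It stood at 14.9 ± 5.41 CPM in wild type and 6.58 ± 3.20 CPM in knockout control cells (SD, n = 3), at 25.3 ± 2.74 against 3.27 ± 1.69 CPM with Ac-LDL and at 28.0 ± 1.81 against 9.91 ± 1.15 CPM with Ox-LDL. The log2 fold change of knockout against wild type passed the test over all genes with Ac-LDL (-2.89, adjusted p = 0.000472). It did not pass in control (-1.18, adjusted p = 1) or with Ox-LDL (-1.50, adjusted p = 0.276). Averaged over media it was -1.85 and passed (adjusted p = 9.97e-06, and 0.000345 with the mouse as a block). The 8 macrophage markers, among them *Csf1r* and *Adgre1*, were all tested and summed to 3640 to 7320 CPM in the libraries. In wild type cells the sum was 4460 to 7190 CPM in control, 4480 to 5790 CPM with Ac-LDL and 3640 to 5820 CPM with Ox-LDL. In knockout cells it was 6110 to 7320, 5330 to 6010 and 4350 to 5290 CPM, below control without overlap with both LDL forms. The part of this sum in the values of the 10 genes was not tested. *Xist* exceeded 100 counts in every library of 1 wild type mouse (mouse 2) and 1 knockout mouse (mouse 1). *Tfe3* is X-linked. Wild type mouse 2 stands apart below for *Rptor* and *Slc38a9*. Knockout mouse 1 went the other way, with the lowest means over media of the knockout mice for both (129.6 and 61.8 CPM). The part of the *Xist* difference between mice in the values of the 10 genes was not tested. In these bulk samples fewer cells of a type and less RNA per cell cannot be told apart.

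Of the 10 genes, 9 were well expressed and 1, *Rragd*, was near the limit of these libraries. Per length, as CPM per kilobase of the longest coding transcript and averaged over the 18 libraries, *Rragc* was highest at 67.1, followed by *Mitf* at 34.5, *Tfe3* at 26.4, *Fnip1* at 25.6, *Rptor* at 18.4, *Tfeb* at 16.8 and *Flcn* at 15.7. *Mtor* (8.69), *Slc38a9* (7.1) and *Rragd* (1.24) closed the order. The libraries of *Rragc* (57.5 to 88.0) did not overlap those of *Mitf* (18.7 to 47.9). The ranges of *Mitf*, *Tfe3* (17.2 to 31.3) and *Fnip1* (21.3 to 28.7) overlapped. So did those of *Rptor*, *Tfeb* and *Flcn* (11.1 to 23.2 together) and those of *Mtor* and *Slc38a9* (5.65 to 10.9 together). The order within each of these sets was not separated by the libraries' spread. The first and second sets also overlapped with each other, for example *Tfe3* with *Rptor* (13.4 to 23.2), so their order was not fully separated. The range of *Rragd*, from 0.138 to 2.66, lay below all others.

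**Figure D1:**
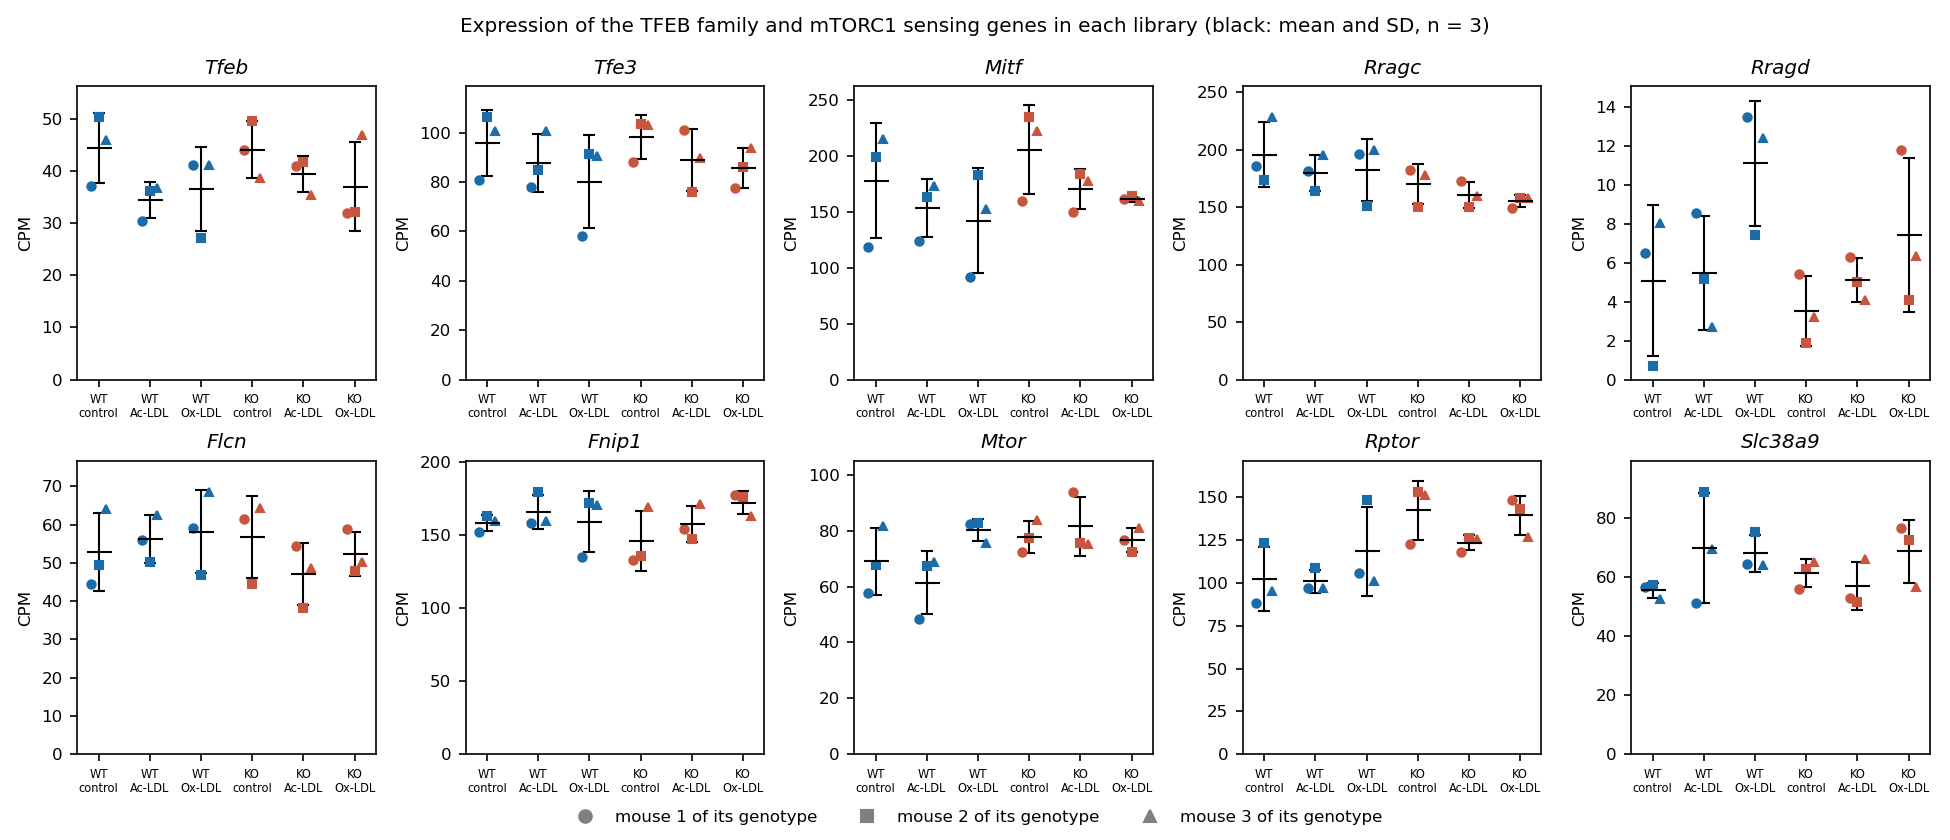
Expression of the 10 genes in CPM (y axis, linear, from 0) in each of the 18 libraries, grouped by genotype and medium (x axis); marker shape gives the mouse, and black bars the mean and SD of 3 mice. *Rragd* runs from 0.698 to 13.4 CPM, and the other 9 genes stay between 27.2 and 234 CPM with group means that differ by at most 1.44 times.

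*Tfeb*, *Tfe3* and *Mitf* encode 3 of the 4 MiT/TFE factors. *Tfeb* (chr17:47737030-47792419, plus strand, GRCm38) encodes the factor that gives the family its name. It stood at 37.1, 50.3 and 45.9 CPM in the control libraries of wild type mice 1, 2 and 3, at 30.4, 36.2 and 36.7 CPM with Ac-LDL and at 41.2, 27.2 and 41.1 CPM with Ox-LDL. In knockout mice it stood at 44.0, 49.5 and 38.7 CPM in control, at 41.0, 41.7 and 35.4 CPM with Ac-LDL and at 32.0, 32.2 and 46.8 CPM with Ox-LDL. With Ac-LDL the value was lower than in the same mouse's control in 6 of 6 mice, and with Ox-LDL in 4 of 6. Averaged over genotypes, the log2 fold change was -0.27 for both LDL forms (Ac-LDL 95% confidence interval -0.56 to 0.02, adjusted p = 0.475; Ox-LDL -0.56 to 0.02, adjusted p = 0.338), and neither passed the test.

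*Tfe3* (chrX:7762560-7775202, plus strand) encodes the factor that most resembles TFEB in its control by mTORC1. In wild type mice 1, 2 and 3 it stood at 80.8, 106.1 and 100.6 CPM in control, at 77.8, 85.0 and 100.6 CPM with Ac-LDL and at 58.2, 91.4 and 90.6 CPM with Ox-LDL. In knockout mice it stood at 88.0, 103.4 and 103.1 CPM in control, at 100.9, 76.1 and 89.9 CPM with Ac-LDL and at 77.5, 86.2 and 93.7 CPM with Ox-LDL. Ox-LDL libraries were below the control library of the same mouse in 6 of 6 mice, by 0.14 to 0.46 on the log2 scale, although the groups overlapped. The averaged log2 fold change was -0.22 (SE 0.118, interval -0.46 to 0.02, adjusted p = 0.360, and 0.134 with the mouse as a block).

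*Mitf* (chr6:97807052-98021349, plus strand) was the factor of the family with the smallest adjusted p. Its wild type libraries held 118.8, 198.9 and 215.0 CPM in control, 123.4, 163.3 and 172.7 CPM with Ac-LDL and 91.4, 182.7 and 151.9 CPM with Ox-LDL. Its knockout libraries held 159.8, 234.0 and 221.8 CPM in control, 149.7, 183.3 and 177.4 CPM with Ac-LDL and 160.8, 163.5 and 159.0 CPM with Ox-LDL. Wild type mouse 1 was the lowest of the 6 mice in every medium, and the groups overlapped between media. Within mice, the Ox-LDL value was below control in 5 of 6, by 0.12 to 0.51 on the log2 scale, and knockout mouse 1 stood 0.01 above its control.

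Averaged over genotypes, the log2 fold change of *Mitf* with Ox-LDL was -0.33 (SE 0.148, interval -0.64 to -0.03). Without regard to the mouse it did not pass the test (adjusted p = 0.248). In the fit with the mouse as a block, which compares each mouse with itself, it passed (-0.33, adjusted p = 0.00323), and it passed there in the knockout mice alone too (-0.34, adjusted p = 0.0466), where the unblocked value was -0.35 (adjusted p = 0.551). The averaged blocked call was kept without wild type mouse 1 (adjusted p = 0.00426) and narrowly lost without wild type mouse 3 (-0.28, adjusted p = 0.0502) or knockout mouse 2 (-0.28, adjusted p = 0.0508). That of the knockout mice alone was lost without knockout mouse 2 (adjusted p = 0.497) or knockout mouse 3 (adjusted p = 0.407). With Ac-LDL the averaged log2 fold change was -0.24 (adjusted p = 0.584, and 0.0743 with the block).

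Of 6 osteoclast markers, 4 were tested, *Oscar* was at 0 in every library and *Calcr* had 4 counts in all. Their summed level was 27.9 to 32.5 CPM in wild type control cells, 18.4 to 27.5 CPM with Ac-LDL and 9.88 to 26.9 CPM with Ox-LDL, and 35 to 38, 17.3 to 22 and 9.83 to 16 CPM in the knockout groups. With Ac-LDL and with Ox-LDL the summed level lay below control in both genotypes without overlap, and its part in the *Mitf* values was not tested. Mast cell markers, which mark another cell type that depends on MITF, summed to at most 3.37 CPM in any library. *Tfec*, the fourth member of the family, is expressed mainly in macrophages and osteoclasts. Its averaged log2 fold changes of -0.22 with Ac-LDL and -0.06 with Ox-LDL did not pass the test.

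**Figure D2:**
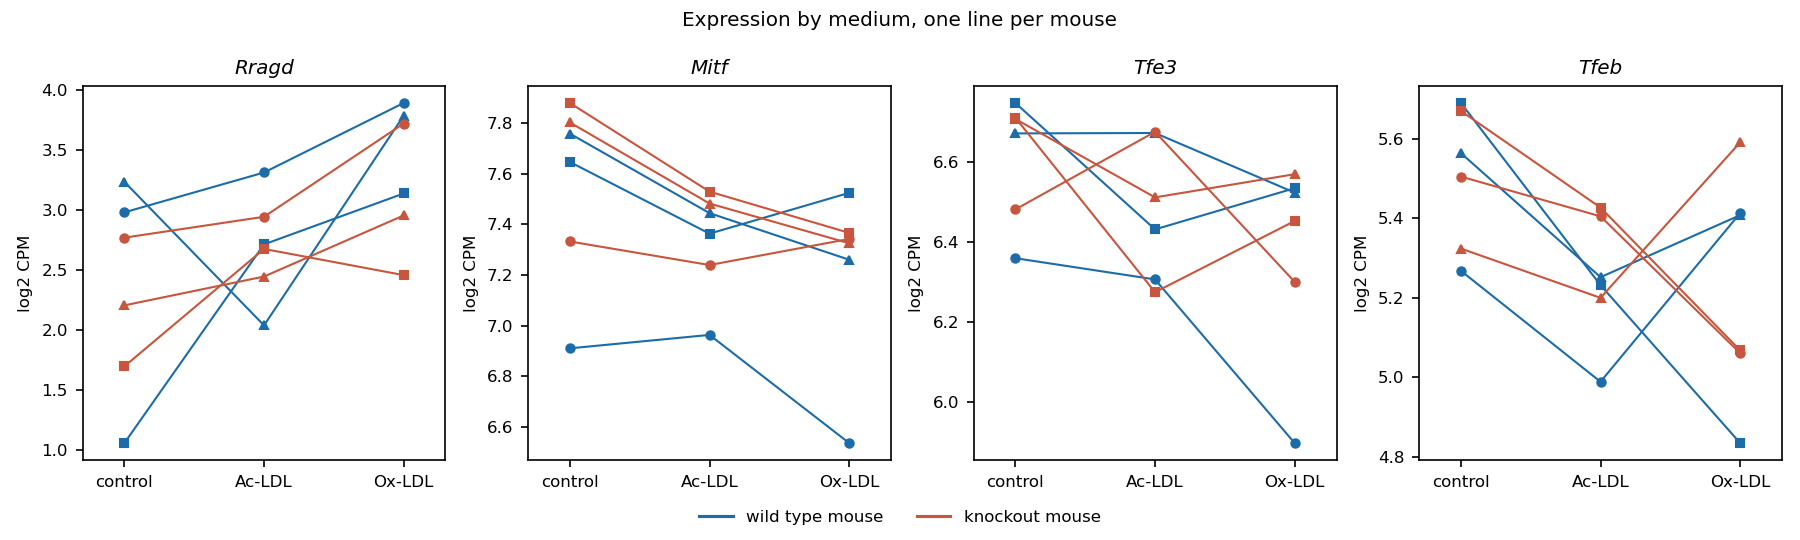
log2 CPM (y axis, a scale of its own for each gene) of *Rragd*, *Mitf*, *Tfe3* and *Tfeb* in control, Ac-LDL and Ox-LDL libraries (x axis), with a line for each mouse, blue for wild type and red for knockout. *Rragd* lies above control with Ox-LDL in 6 of 6 mice, *Tfe3* below it in 6 of 6 and *Mitf* below it in 5 of 6.

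Among the Rag GTPases, *Rragc* and *Rragd* encode the partners that respond to folliculin. *Rragd* (chr4:32983037-33022180, plus strand), a known target of TFEB-family factors in other cells, was the gene of the 10 that differed most between media. Its wild type libraries held 6.5, 0.698 and 8.0 CPM in control, 8.5, 5.2 and 2.7 CPM with Ac-LDL and 13.4, 7.4 and 12.4 CPM with Ox-LDL. Its knockout libraries held 5.4, 1.9 and 3.2 CPM in control, 6.3, 5.0 and 4.1 CPM with Ac-LDL and 11.8, 4.1 and 6.4 CPM with Ox-LDL. These levels rest on 1 to 19 counts per library, and the 1 count of wild type mouse 2 in control is below the 3 counts taken as the floor.

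Each Ox-LDL library was above the control library of the same mouse, by 0.91, 2.08 and 0.55 on the log2 scale in wild type mice 1, 2 and 3 and by 0.95, 0.76 and 0.75 in the knockout mice, although the groups overlapped. The means were 5.07 ± 3.86 CPM in control and 11.1 ± 3.22 CPM with Ox-LDL in wild type, and 3.5 ± 1.8 and 7.42 ± 3.95 CPM in knockout cells (SD, n = 3). Averaged over genotypes this was a 2.10-fold difference (log2 1.07, SE 0.405, interval 0.23 to 1.91). It did not pass the test without regard to the mouse (adjusted p = 0.134) and passed with the mouse as a block (log2 1.11, adjusted p = 0.0314). The blocked call was lost without wild type mouse 2 (0.93, adjusted p = 0.109), knockout mouse 1 (adjusted p = 0.119), knockout mouse 2 (adjusted p = 0.0642) or knockout mouse 3 (adjusted p = 0.0817). Within 1 genotype it passed in neither fit (wild type 1.13, adjusted p = 0.488, and 0.209 with the block; knockout 1.02, adjusted p = 0.516, and 0.273).

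Ac-LDL gave *Rragd* an averaged log2 fold change of 0.30 with an interval from -0.60 to 1.20 (adjusted p = 0.870). That interval includes changes in either direction. Of 7 neutrophil markers, 5 were tested and *Ly6g* was at 0 in every library. Their summed level was 72.9 to 125 CPM in control, 78.2 to 216 CPM with Ac-LDL and 135 to 249 CPM with Ox-LDL in wild type cells, and 52 to 141, 24.4 to 57.5 and 61.6 to 113 CPM in knockout cells. Its part in the *Rragd* value was not tested.

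*Rragc* (chr4:123917446-123936997, plus strand), the abundant partner, differed little between media. Its control libraries held 185.7, 173.8 and 228.2 CPM in wild type and 182.7, 150.4 and 177.9 CPM in knockout mice. With Ox-LDL they held 196.2, 151.2 and 199.5 CPM and 149.0, 158.1 and 158.4 CPM. With Ac-LDL they held 181.2, 164.0 and 195.2 CPM and 172.6, 149.9 and 160.0 CPM. These were below control in 6 of 6 mice (-0.22 to -0.0046 on the log2 scale). How many of all genes lie on the same side of control in 6 of 6 mice was not counted, here or for the other genes. The averaged log2 fold changes of *Rragc* were -0.10 with Ac-LDL (interval -0.30 to 0.09, adjusted p = 0.761) and -0.12 with Ox-LDL (-0.32 to 0.08, adjusted p = 0.595).

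Folliculin and FNIP1 together form the complex that lets RagC and RagD engage mTORC1. *Flcn* (chr11:59791408-59810016, minus strand) had group means between 47.1 CPM (knockout, Ac-LDL) and 58.2 CPM (wild type, Ox-LDL). Its averaged log2 fold change with Ox-LDL was 0.003, with an interval from -0.27 to 0.28 that leaves changes of up to 1.22-fold possible, and with Ac-LDL -0.10 (-0.38 to 0.18). *Fnip1* (chr11:54438199-54518235, plus strand) had the lowest ratio between group means of the 10 genes (1.18), from 146 ± 20.3 CPM in knockout control cells to 172 ± 8.14 CPM in knockout cells with Ox-LDL (SD, n = 3). Its averaged log2 fold changes were 0.09 with Ac-LDL, in 6 of 6 mice above 0 (0.0016 to 0.21), and 0.13 with Ox-LDL (adjusted p = 0.784 and 0.543).

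mTOR is the kinase of the complex and Raptor, encoded by *Rptor*, the subunit that binds the Rag GTPases and the substrates. *Mtor* (chr4:148448611-148557683, plus strand) had averaged log2 fold changes of -0.05 with Ac-LDL (interval -0.28 to 0.18) and 0.10 with Ox-LDL (-0.13 to 0.32). *Rptor* (chr11:119602905-119899576, plus strand) had -0.12 (-0.34 to 0.11) and 0.09 (-0.14 to 0.31). *Slc38a9* (chr13:112660751-112738749, plus strand), the lysosomal arginine sensor, had group means from 55.4 ± 2.59 CPM in wild type control cells to 69.8 ± 18.7 CPM in wild type cells with Ac-LDL, where wild type mouse 2 alone held 88.7 CPM. It was higher with Ox-LDL in 5 of 6 mice (0.23, interval -0.03 to 0.48, adjusted p = 0.378) and gave 0.12 with Ac-LDL (adjusted p = 0.794). None of these differences passed the test.

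Over the LDL comparisons, 0 of the 10 genes passed the edgeR test at an adjusted p under 0.05, and DESeq2 called 0 as well. The share of all tested genes that passed was 0.472% for Ac-LDL and 1.34% for Ox-LDL in wild type cells, 0.521% and 2.32% in knockout cells, and 2% and 5.39% averaged over genotypes. At an unadjusted p under 0.05 the 10 genes gave 0 in wild type cells with Ac-LDL (all genes 7.33%), 1 with Ox-LDL (*Rragd*, all genes 10%), 0 and 0 in knockout cells (7.53% and 12.3%), and 0 and 2 averaged over genotypes (*Rragd* and *Mitf*, all genes 11.8% and 16.6%). With the mouse as a block, 1 of the 10 passed in knockout cells with Ox-LDL and 2 passed averaged over genotypes with Ox-LDL, against 7.18% and 11.3% of all genes. The blocked fit called 0 of them for either LDL form in wild type cells (all genes 2.16% and 4.39%), and 0 for Ac-LDL in knockout cells (2.5%) or averaged (5.85%). Their median averaged log2 fold change was -0.10 with Ac-LDL and 0.05 with Ox-LDL, beside -0.01 and 0.01 over all tested genes.

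**Figure D3:**
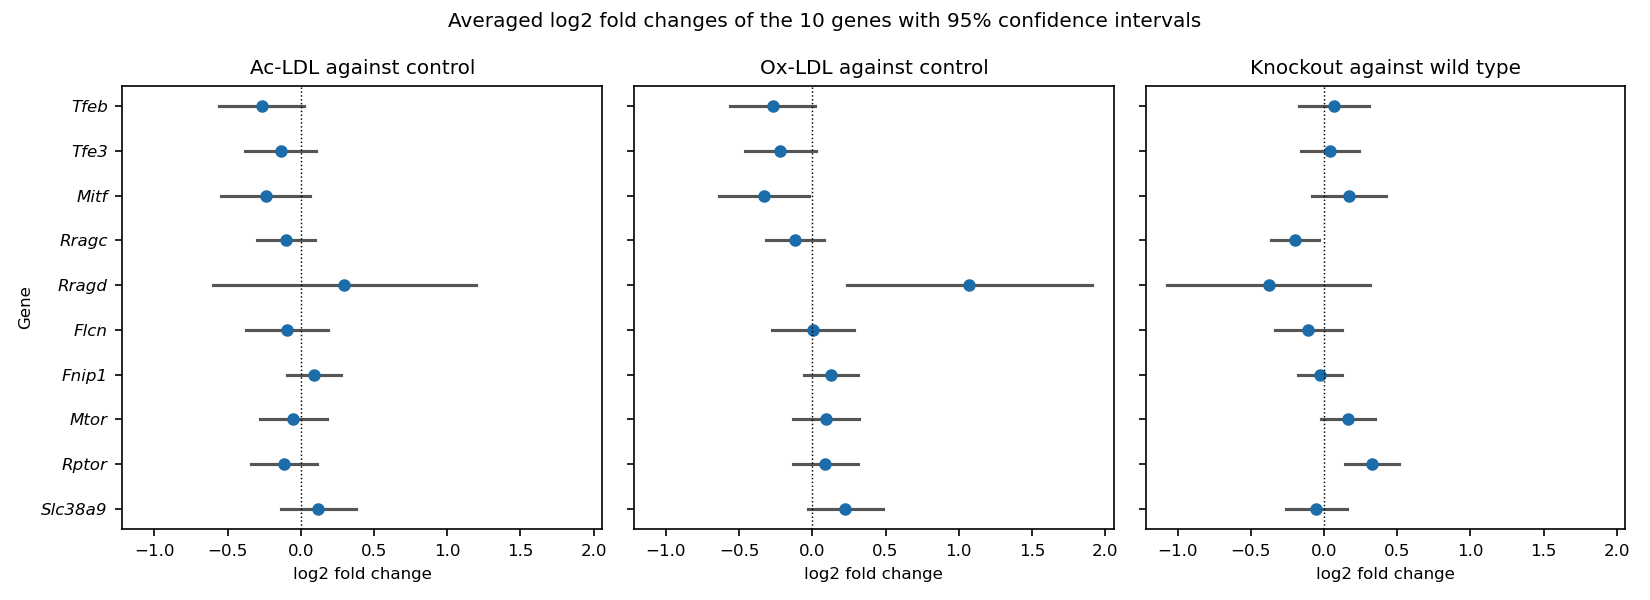
log2 fold changes (x axis) of the 10 genes (y axis) with 95% confidence intervals, averaged over genotypes for Ac-LDL and Ox-LDL and averaged over media for knockout against wild type, in the fit without the mouse. Among the LDL intervals those of *Rragd* (0.23 to 1.91) and *Mitf* (-0.64 to -0.03) with Ox-LDL do not include 0; in the knockout panel those of *Rptor* and *Rragc* do not.

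Knockout and wild type cells were compared within each medium and averaged over media. By the averaged comparison, *Rptor* had the smallest adjusted p of the 10 genes. Its control libraries held 88.2, 123.5 and 95.5 CPM in wild type and 122.4, 152.9 and 151.5 CPM in knockout mice. With Ac-LDL they held 96.8, 108.6 and 97.2 against 118.2, 126.1 and 125.8 CPM, and with Ox-LDL 105.7, 148.1 and 101.1 against 148.2, 143.0 and 126.6 CPM. The genotypes did not overlap with Ac-LDL and overlapped in the other media through wild type mouse 2. Averaged over media, the mice held 129.6, 140.7 and 134.6 CPM in knockout and 96.9, 126.8 and 97.9 CPM in wild type, without overlap.

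The log2 fold change of *Rptor* was 0.47 in control (interval 0.15 to 0.78, adjusted p = 1), 0.29 with Ac-LDL (adjusted p = 0.990) and 0.23 with Ox-LDL (adjusted p = 0.933). Averaged over media it was 0.33 (SE 0.0885, interval 0.14 to 0.51, adjusted p = 0.187). That fit counts the 3 libraries of a mouse as separate, and with the mouse as a random block in limma-voom the adjusted p was 0.396. An exact two-sided permutation test of the 6 mouse means gave p = 0.10, the smallest that 3 against 3 allows. With single libraries left out of the fit without the mouse, the averaged value ran from 0.294 to 0.40 (adjusted p from 0.0265 to 0.385). The upper value, 0.40 (adjusted p = 0.0265), was without the Ox-LDL library of wild type mouse 2. *Rptor* overlaps *Rptoros* and *Gm11761* on the other strand. *Mitf* (*Gm15531*), *Rragd* (*Gm11943*), *Rragc* (*4930535I16Rik*), *Mtor* (*Angptl7*) and *Slc38a9* (*Gm47827*) also overlap a gene on the other strand. The strand setting of the quantification is not given in the sources used here, and the part of these overlaps in the values was not tested.

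*Mtor*, the partner of Raptor, held 48.4, 67.2 and 68.7 CPM in wild type and 93.8, 75.5 and 75.4 CPM in knockout cells with Ac-LDL, without overlap (0.39, SE 0.157, adjusted p = 0.990). Such a separation of 3 against 3 gives p = 0.1 at best in an exact two-sided permutation test. How many of all genes show it was not counted. In control *Mtor* held 57.6, 67.7 and 81.6 against 72.4, 77.4 and 83.8 CPM, and with Ox-LDL 82.4, 82.7 and 75.6 against 76.6, 72.5 and 80.9 CPM, where the genotypes overlapped. Averaged over media its log2 fold change was 0.16 (adjusted p = 0.562). *Rragc* was lower in knockout cells by the same measure (-0.20, interval -0.36 to -0.04, adjusted p = 0.419), and its mouse means overlapped.

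The other 7 genes had averaged log2 fold changes of knockout against wild type from -0.38 for *Rragd* (interval -1.07 to 0.31) to 0.17 for *Mitf* (-0.08 to 0.42). The summed neutrophil markers were lower in knockout cells without overlap with Ac-LDL (24.4 to 57.5 against 78.2 to 216 CPM) and with Ox-LDL (61.6 to 113 against 135 to 249 CPM), and their part in the *Rragd* value was not tested. The log2 fold changes of *Tfeb* (0.07, interval -0.17 to 0.31), *Tfe3* (0.04, -0.16 to 0.24), *Fnip1* (-0.03, -0.18 to 0.12) and *Slc38a9* (-0.05, -0.26 to 0.16) had intervals that include 0, as had that of *Flcn* (-0.11, -0.34 to 0.12). Of the 10 genes, 0 passed the test in control, with Ac-LDL, with Ox-LDL or averaged over media, where 0.00814%, 0.0163%, 0.00814% and 0.057% of all genes passed by edgeR, and DESeq2 called 0 of the 10 as well. At an unadjusted p under 0.05 the counts were 1, 1, 0 and 2, beside 4%, 4.89%, 4.78% and 9.98% of all genes. All wild type libraries precede the knockout libraries in the sample numbers that the labels carry, so their order and the genotype cannot be told apart.

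Whether the genotypes differed in their response to LDL was tested as an interaction, and 0 of the 10 genes passed, as did 0% of all genes for either LDL form by edgeR, and DESeq2 called 0 of the 10. At an unadjusted p under 0.05 it was 0 of 10 for both, beside 2.66% of all genes for Ac-LDL and 2.75% for Ox-LDL. For Ac-LDL the gene of the 10 nearest to the threshold was *Slc38a9*, whose response was 0.34 in wild type and -0.10 in knockout cells (difference -0.45, interval -0.96 to 0.07, adjusted p = 1). For Ox-LDL it was *Fnip1* (difference 0.22, interval -0.15 to 0.60, adjusted p = 1). For *Rragd* the differences were 0.42 (interval -1.37 to 2.22) and -0.11 (-1.79 to 1.56), intervals wide enough to include large differences either way. For *Mitf* they were -0.05 (-0.66 to 0.56) and -0.03 (-0.65 to 0.58).

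The wider pathway was described with 12 gene lists, of which 100 genes besides the 10 were tested. With Ac-LDL averaged over genotypes, 1 of the 100 passed, lower, and 0 passed higher, beside 2% of all genes. This was *Sqstm1*, which encodes the autophagy receptor p62 and is a TFEB target, at -0.51 (SE 0.0924, adjusted p = 0.00214) and lower in 6 of 6 mice. Of 28 known TFEB targets of autophagy and lysosome, 25 had values below 0 (median -0.09), as had 16 of 17 subunits of the vacuolar ATPase, the proton pump that also signals to the Rag GTPases (median -0.10). Of all 12290 tested genes 6280 were below 0, with a median of -0.01. With library size scaling the median over all genes was 0.0472, so counts of values below 0 depend on the scaling. Other than *Sqstm1*, none of these targets and subunits passed the test. With the mouse as a block 3 of the 100 passed, all lower, beside 5.85% of all genes. Chosen after their values were seen, *Atp6v0c* (-0.37, adjusted p = 0.000504) and *Cd63* (-0.24, adjusted p = 0.0248) were among these 3.

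With Ox-LDL averaged over genotypes, 1 of the 100 passed higher and 3 lower, beside 5.39% of all genes. *Atp6v0a1*, a membrane subunit of the vacuolar ATPase, was higher (0.36, SE 0.0875, adjusted p = 0.0135), and also in knockout cells alone (0.48, adjusted p = 0.035), a call lost without any single control or Ox-LDL library of the knockout mice (adjusted p from 0.0617 to 0.16). Among those lower were *Atp6v0c*, the proteolipid of the same pump (-0.42, adjusted p = 0.0179), and *Lamtor1*, the Ragulator subunit that anchors the Rag GTPases to the lysosome (-0.42, adjusted p = 0.0204). *Lamtor1* was lower in 6 of 6 mice, and *Atp6v0a1* was higher and *Atp6v0c* lower in 5 of 6. Each of the calls of these named genes was lost when some single library was left out, at an adjusted p of 0.0532 for *Atp6v0a1* without the control library of wild type mouse 2 and up to 0.0781 for *Atp6v0c* (control library of knockout mouse 1) and 0.0791 for *Lamtor1* (Ox-LDL library of knockout mouse 2).

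With the mouse as a block, 6 of the 100 were called higher and 7 lower with Ox-LDL, beside 11.3% of all genes. Chosen after its values were seen, *Fnip2*, which encodes the alternative partner of folliculin, was higher in 6 of 6 mice (0.30, adjusted p = 0.000799 with the block and 0.0605 without). *Slc7a5*, the light chain of a leucine transporter, also chosen after its values were seen, was lower in 6 of 6 mice (blocked -1.05, adjusted p = 0.0118, and 0.0559 without). It was among 4 genes of the amino acid sensors and transporters that the block called, 1 higher and 3 lower. Of the 28 TFEB targets, 16 had values above and 12 below 0 with Ox-LDL, with a median of 0.03. The 4 Rag GTPases had a median of 0.15, the 5 Ragulator subunits -0.03 and the 9 genes of the mTOR complex list, *Tti1* and *Telo2* included, 0.12. The 7 GATOR1 and KICSTOR genes had 0.10, the 5 GATOR2 genes 0.10 and the 4 TSC complex and Rheb genes 0.01. The 14 amino acid sensors and transporters had 0.05 and the 10 mTORC1 substrates and TFEB phosphatase genes 0.01. Of these lists, from the Rag GTPases on, that of the Ragulator alone held a gene that passed the unblocked test (*Lamtor1*).

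**Figure D4:**
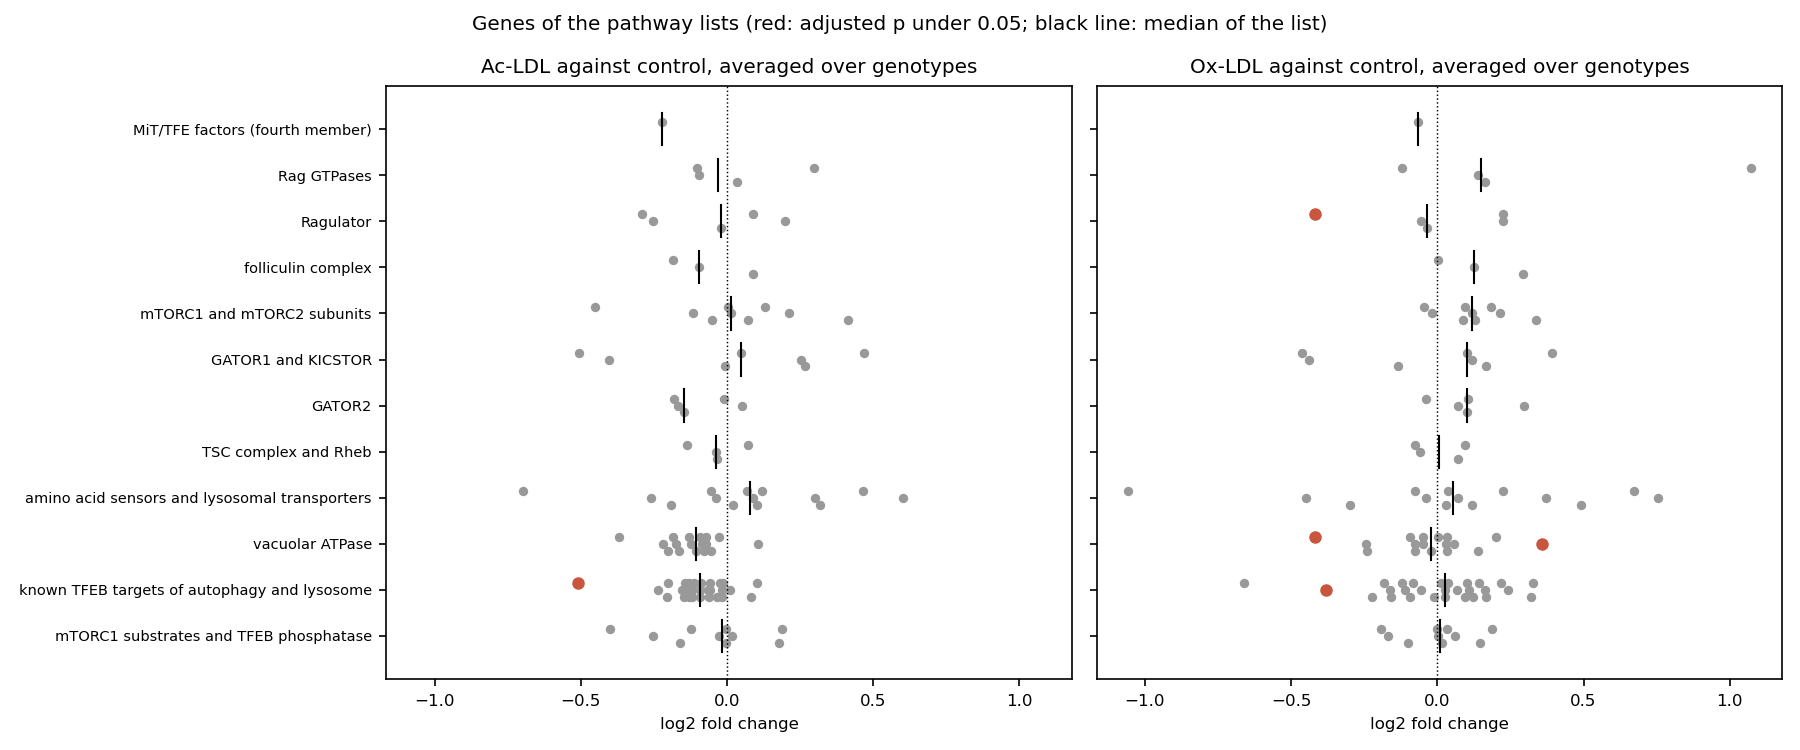
log2 fold changes (x axis) averaged over genotypes for each tested gene (points) of the 12 pathway lists (y axis), the lists' members among the 10 genes included, for Ac-LDL and Ox-LDL. Red points passed at an adjusted p under 0.05 and black lines mark each list's median; the single point furthest right with Ox-LDL is *Rragd* at 1.07, which did not pass.

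For knockout against wild type averaged over media, 0 of the 100 genes passed, beside 0.057% of all genes. Of the 100, 74 had values below 0 (median -0.09), beside 6217 of all 12290 tested genes (median -0.003). Of the 28 TFEB targets 25 had values below 0 (median -0.10), of which *Gpnmb*, chosen after its values were seen, had the smallest adjusted p (-0.36, adjusted p = 0.117). Of the 17 vacuolar ATPase subunits 14 had values below 0 (median -0.12). The 9 genes of the mTOR complex list, with *Mtor*, *Rptor*, *Tti1* and *Telo2* among them, had a median of 0.16, with 5 values above 0.

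Over the 18 libraries the genes whose log2 CPM was most like that of *Rptor* were *Adam8* (Pearson's r = 0.854), *Osbpl8* (0.844) and *Prrc2c* (0.83), of 6753 genes searched. Those most like *Rragd* were *Mmp8* (r = 0.854), which encodes neutrophil collagenase, *Tmem154* (0.847) and *Nek6* (0.82), of 6754. Among the 10 genes, *Tfe3* and *Mitf* were most alike (r = 0.79), *Rragc* went with *Flcn* (0.69) and against *Rptor* (-0.76), and *Rragd* went against *Tfe3* (-0.64) and *Mitf* (-0.62). These correlations are descriptions over libraries that share mice, media and library totals.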

How the data were processed

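The authors deposited estimated counts per gene for all 18 libraries, from a stranded total RNA kit, Salmon and STAR on mm10 per the labels (versions and strand setting not given in the sources used here). Counts were rounded to whole numbers, filtered (filterByExpr, minimum count 2, total 10), scaled by TMM and tested with edgeR 4.0.16 (R 4.3.3), by the quasi-likelihood test over all 6 groups with Benjamini-Hochberg adjustment over 12290 genes at 0.05. SEs are Wald errors and intervals are 95%. The labels give the same animal across media, and the 18 pairs of same-mouse deviations correlated at 0.0551 to 0.293 (median 0.158), so a fit with the mouse as a block was run. For comparisons of genotypes this was limma-voom (limma 3.58.1) with a consensus correlation of 0.176. DESeq2 1.42.0, other scalings and filters, and leaving out libraries or mice were alternatives. Unblocked p-values measure the spread between the libraries of a group, and averaged over media they count the 3 libraries of a mouse as separate. The genes and lists were chosen with earlier results of these data known. Genes named are the 10, *Slc7a7*, *Tfec*, listed genes past the threshold (at most 4 per list), and the 3 genes most correlated with the 2 genes of smallest p (mean of at least 20 CPM), besides those stated as chosen after their values were seen. A listed gene past the threshold is not reported here. Promoter windows are from RefSeq and coordinates of genes from GENCODE vM21.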

Additional observations from a re-analysis of the deposited data

How the results depend on the processing

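The count of 0 genes of the 10 past the threshold was kept in all 12 comparisons by DESeq2, library size scaling, DESeq2 size factors, the default filter and fitting only the libraries compared. Without a filter it was 1 for Ox-LDL averaged over genotypes (*Rragd*, adjusted p = 0.0478) and 1 for knockout against wild type averaged over media (*Rptor*, adjusted p = 0.042, range over alternatives that keep every library 0.042 to 0.396). With the replicate block, in which the same mouse pairs the media, it was 2 for averaged Ox-LDL (all genes 11.3%). For Ox-LDL in knockout cells it was 1 (all genes 7.18%). Leaving out 1 mouse from the blocked fit was chosen after seeing the data. For averaged Ox-LDL this gave 2 without wild type mouse 1 and 0 without knockout mouse 2. It gave 1 without each of wild type mice 2 and 3 and knockout mice 1 and 3. For Ox-LDL in knockout cells it gave 1 without knockout mouse 1. For averaged Ac-LDL it gave 1 without wild type mouse 1 (*Mitf*, -0.27, adjusted p = 0.0286), where 834 of all genes were called. Leaving out 1 library gave 0 to 1 for knockout against wild type averaged over media and 0 in the other comparisons.

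Signs near 0 turned. The averaged Ac-LDL value of *Mtor* became 0.00439 with library size scaling and 0.0105 with the block without knockout mouse 3. The Ac-LDL value of *Rragd* in wild type cells became -0.07 and -0.49 with the block without wild type mouse 1 or 2. The averaged Ox-LDL value of *Flcn* became -0.0433, -0.00552 and -0.038 with the block without wild type mouse 1, knockout mouse 1 or knockout mouse 2. Over single libraries left out, averaged Ac-LDL ran from -0.171 to 0.000323 for *Flcn* and -0.103 to 0.0331 for *Mtor*, averaged Ox-LDL from -0.0678 to 0.0868 for *Flcn* and -0.0165 to 0.167 for *Rptor*, Ac-LDL in wild type cells from -0.474 to 0.676 for *Rragd*, and knockout against wild type averaged over media from -0.00126 to 0.108 for *Tfeb*, -0.0159 to 0.0831 for *Tfe3* and -0.106 to 0.0156 for *Slc38a9*.

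Over all genes, the call counts with the block were 265 for Ac-LDL and 539 for Ox-LDL in wild type cells, 307 and 882 in knockout cells and 719 and 1393 averaged, against 58, 165, 64, 285, 246 and 662 without it. Without a filter they were 176, 337, 188, 491, 438 and 873, and fitted on only the libraries compared they were 32 and 62 in wild type and 198 and 751 in knockout cells. For knockout against wild type averaged over media the count was 7, with 38 by DESeq2, 182 without a filter, 2 with the block and 4 to 88 when single libraries were left out. Of the listed genes, Ox-LDL averaged over genotypes gave 4 and 2 to 7 when single libraries were left out, 7 with library size scaling and 6 by DESeq2. The *Atp6v0a1* call in knockout cells was lost without a filter (adjusted p = 0.0606). The cause of these moves was not tested. The values of *Rragd* rest on 1 to 19 counts per library, and counting error and spread between mice were not separated.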
